A study of Mus musculus with 60 samples.

Results

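Calf muscle of 6-month-old Dmdmdx mice was compared with calf muscle of 6-month-old C57Bl/6 mice on 10 microarrays out of a series of 60, the members being the arrays that the labels give as these 2 lineages at that age. Each group held 5 animals with 1 array per animal (n = 5 and 5 throughout), and all animals were untreated and labelled male. Dmdmdx mice carry a mutation of Dmd, the X-linked gene for dystrophin, and are labelled as a model of Duchenne muscular dystrophy. C57Bl/6 mice are the normal controls. The other 50 arrays cover the same lineages at 21 days and 3 months, and Largemyd and Dmdmdx/Largemyd double-mutant mice at all 3 ages. They are used here to estimate the spread, to choose the probe set of each gene, to fit covariates and for direct tests of difference. The labels do not give the inbred strain on which the Dmdmdx mutation was kept. The mutation arose on a C57BL/10 background, so an effect of strain and an effect of the mutation cannot be told apart in this comparison.

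Dystrophin links the actin cytoskeleton under the muscle fibre membrane to a complex of membrane proteins that binds laminin outside the cell. Without it fibres tear during contraction, die and are replaced from satellite cells, the stem cells of muscle, while macrophages clear the debris and fibroblasts lay down matrix. In mice lacking dystrophin the wave of fibre death is strongest in the first weeks after weaning, and the limb muscles then go on in a slower cycle of damage and repair.

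All levels below are log2 RMA values of a whole-transcript array, on which 1 unit is a 2-fold step, and a difference is the mean of the Dmdmdx arrays minus that of the C57Bl/6 arrays, given as log2 units ± standard error. It was tested with limma over 12 group means and 60 arrays, and every p is adjusted by the Benjamini-Hochberg method over 19938 genes. At 6 months 2763 genes passed at an adjusted p under 0.05 (13.9% of those tested), 1419 higher in Dmdmdx (7.12%) and 1344 lower (6.74%), and 307 of them differed at least 2-fold. The median difference over all genes was -0.05. The 5 values of one group lay wholly above the 5 of the other for 3088 genes (15.5%), of which 2106 passed the test.

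The 10 arrays differed in sex-linked transcripts. Xist, the RNA made from the inactive X chromosome of females, read 10.58 to 10.81 in C57Bl/6 replicates 1, 2, 4 and 5 and 5.54 in replicate 3, and it read 11.10 in Dmdmdx replicate 4 and 5.11 to 5.66 in the other Dmdmdx arrays. The mean of the Y-linked genes was 4.89 to 5.17 in the 5 arrays high in Xist and 8.61 to 8.90 in the 5 low ones, so 5 of the 10 arrays go against the label male. With Xist class as a covariate 2530 genes passed, 2220 of the 2763 (80.3%) among them, and each call below that ended with the covariate is given with its p.

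The tissue label was checked against 10 marker genes of skeletal muscle, whose mean was 13.30 to 13.36 in the C57Bl/6 arrays and 13.30 to 13.39 in the Dmdmdx arrays. Markers of bone marrow varied within both groups. Their mean over 20 genes was 8.63, 7.39, 10.40, 7.22 and 7.396 in the 5 C57Bl/6 arrays and 6.68, 6.80, 7.12, 6.74 and 8.64 in the 5 Dmdmdx arrays. C57Bl/6 replicate 3 therefore carried the strongest marrow signal, followed by Dmdmdx replicate 5 and C57Bl/6 replicate 1. The mean of 16 neutrophil genes moved with it, at 11.002 in C57Bl/6 replicate 3 and 9.37 in Dmdmdx replicate 5, and the part of this signal in the results was not tested beyond the fits given beside them.

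The promoters printed next belong to genes described below, Ms4a7 and Mmp12 of macrophages, Oas1a and Ifih1 of the interferon response and Myh3 of newly formed fibres. Each is a stretch of 300 bases around a start of the gene in RefSeq annotation of the mouse build GRCm38.p6, written 5′ to 3′ in the direction of transcription. Capitals mark GAGGAA, a core of the site of the myeloid factor PU.1, in the first pair, GAAA, any 2 bases and GAAA again, the core of the interferon response element, in the next pair, and CANNTG, the E-box of myogenic regulators, in Myh3, each read on both strands.
Ms4a7 promoter, chr19:11336097-11336396, minus strand: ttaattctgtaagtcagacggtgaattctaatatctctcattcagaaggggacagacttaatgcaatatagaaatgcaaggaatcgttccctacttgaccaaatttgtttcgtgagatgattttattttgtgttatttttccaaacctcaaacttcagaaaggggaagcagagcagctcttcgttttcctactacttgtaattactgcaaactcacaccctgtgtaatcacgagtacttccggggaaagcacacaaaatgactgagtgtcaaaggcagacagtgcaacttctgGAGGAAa
Mmp12 promoter, chr9:7344147-7344446, plus strand: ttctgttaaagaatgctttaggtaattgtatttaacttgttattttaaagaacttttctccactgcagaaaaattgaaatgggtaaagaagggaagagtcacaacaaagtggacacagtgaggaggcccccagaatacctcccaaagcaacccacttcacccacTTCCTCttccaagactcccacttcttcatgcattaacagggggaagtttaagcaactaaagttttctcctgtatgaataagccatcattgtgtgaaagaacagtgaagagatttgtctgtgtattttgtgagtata
Oas1a promoter, chr5:120907476-120907775, minus strand: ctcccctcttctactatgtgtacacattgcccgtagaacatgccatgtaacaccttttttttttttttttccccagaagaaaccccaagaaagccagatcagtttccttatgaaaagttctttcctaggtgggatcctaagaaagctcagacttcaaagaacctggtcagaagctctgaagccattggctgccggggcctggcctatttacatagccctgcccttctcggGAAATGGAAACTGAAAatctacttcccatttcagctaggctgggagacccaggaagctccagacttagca
Ifih1 promoter, chr2:62646206-62646505, minus strand: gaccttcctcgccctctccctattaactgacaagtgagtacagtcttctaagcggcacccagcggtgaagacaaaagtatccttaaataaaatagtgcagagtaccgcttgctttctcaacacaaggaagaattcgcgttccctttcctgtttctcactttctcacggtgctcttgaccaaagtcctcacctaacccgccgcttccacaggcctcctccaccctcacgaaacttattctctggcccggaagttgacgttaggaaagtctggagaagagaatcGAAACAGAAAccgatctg
Myh3 promoter, chr11:67078050-67078349, plus strand: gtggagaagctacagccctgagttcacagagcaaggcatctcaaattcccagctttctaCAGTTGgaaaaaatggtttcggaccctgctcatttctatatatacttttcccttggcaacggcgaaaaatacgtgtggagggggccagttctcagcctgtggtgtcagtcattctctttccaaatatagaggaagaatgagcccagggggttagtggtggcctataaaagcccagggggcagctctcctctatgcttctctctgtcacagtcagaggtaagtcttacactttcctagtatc

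A GAGGAA match stood in the promoter of 14 of the 27 macrophage genes with a listed promoter (51.9%), against 31.3% of all 27025 genes with one. The interferon response element stood in 11 of 20 interferon-induced genes (55.0%) against 3.99% of all genes. CANNTG stood in 20 of 24 genes of the regenerating sarcomere (83.3%) against 75.0%, and TATAAA in 8 of those 24 (33.3%) against 15.7%. Among the members that rose, GAGGAA stood in 13 of 24 and the interferon response element in 3 of 7. CANNTG stood in 7 and TATAAA in 4 of the 10 risen sarcomere genes. Whether matches go with the rises was not tested. A match describes letters in a window and not bound protein. The promoters were chosen for printing after the values and matches were seen. Those of C3ar1 and Gpnmb held no GAGGAA, and Ms4a7 and Mmp12 each have a further listed start whose window holds none.

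Dmd was measured first, because the label turns on it. It read 9.84, 9.95, 9.55, 9.98 and 10.09 in the C57Bl/6 arrays and 9.34, 8.92, 8.90, 8.97 and 8.64 in the Dmdmdx arrays. The groups did not overlap, and Dmd was -0.93 ± 0.18 in Dmdmdx (adjusted p = 0.00011). Between the arrays low in Xist alone (1 against 4) it was -0.60 with an adjusted p of 0.25, and between those high in it (4 against 1) -0.99 with 0.73.

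Of 22 measured genes of the dystrophin complex and its laminin and integrin partners, 4 rose and 2 fell (Dmd and Nos1), with a median of 0.07. With Xist class and the marrow mean as covariates 5 rose and 7 fell, with a median of -0.18. Nos1 encodes the neuronal nitric oxide synthase that dystrophin holds at the membrane. It read 10.06, 10.17, 9.77, 10.15 and 10.17 in C57Bl/6 and 8.58, 8.72, 8.56, 9.61 and 8.99 in Dmdmdx, a difference of -1.17 ± 0.21 (adjusted p = 4.2e-05). The groups lay apart, with Dmdmdx replicate 4 closest to the controls. Lama2, a chain of the laminin of the fibre surface, rose by 0.68 ± 0.14, and Sntb2, a syntrophin, by 0.62 ± 0.07. Itga7, the laminin-binding integrin of muscle, rose by 0.54 ± 0.17 (adjusted p = 0.027, but 0.13 with Xist class as a covariate), and its partner Itgb1 by 0.43 ± 0.07. The call of Itga7 also ended without C57Bl/6 replicate 2 (adjusted p = 0.059), C57Bl/6 replicate 5 (0.067), Dmdmdx replicate 1 (0.065) or Dmdmdx replicate 5 (0.052). Utrn, whose product utrophin resembles dystrophin and can take its place, differed by 0.17 ± 0.07 and did not pass (adjusted p = 0.11), whereas with Xist class as a covariate it was 0.23 with an adjusted p of 0.040. Dag1, the dystroglycan precursor, differed by -0.04 ± 0.10 (adjusted p = 0.87). Of 13 measured genes of dystroglycan glycosylation none rose and 3 fell, B3galnt2 (-0.52) and Pomgnt2 (-0.40) by the most.

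Genes of membrane repair were higher. Of 13 measured, 7 rose and none fell, with a median of 0.43. Myof, encoding myoferlin of membrane fusion, rose by 1.51 ± 0.18 from 8.24 to 8.38 in C57Bl/6 to 9.60 to 10.32 in Dmdmdx. The annexin genes Anxa2 (0.84 ± 0.15) and Anxa5 (0.73 ± 0.12) rose with non-overlapping arrays, while Anxa1 (0.83 ± 0.24, adjusted p = 0.014) overlapped, with C57Bl/6 replicate 3 at 10.33. The call of Anxa1 ended with Xist class as a covariate (adjusted p = 0.081) and without C57Bl/6 replicate 4 (0.066), C57Bl/6 replicate 5 (0.053) or Dmdmdx replicate 1 (0.067). Dysf, the dysferlin gene of the same family as myoferlin, differed by 0.15, and Trim72, which nucleates repair patches, by -0.01, and neither passed.

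**Figure D1:**
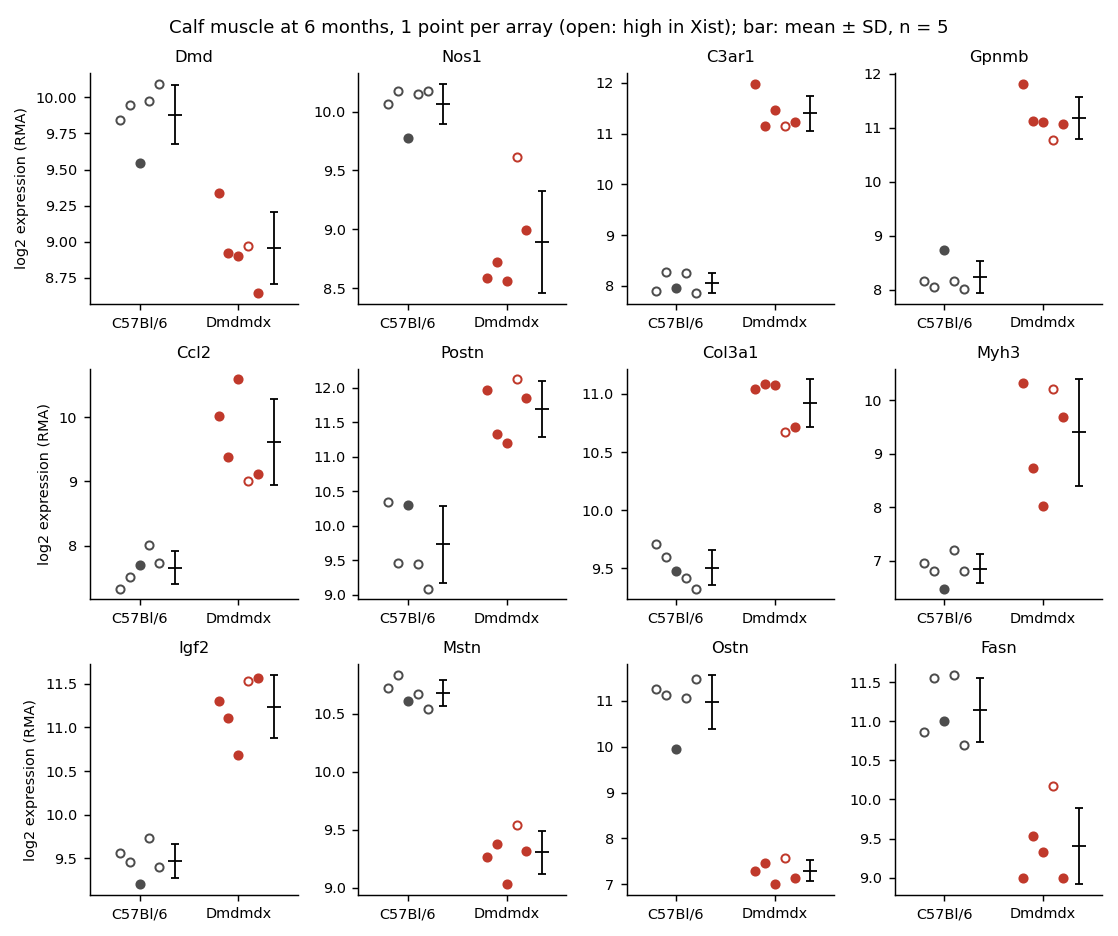
Level (log2 RMA value) of 12 genes in each of the 5 C57Bl/6 and 5 Dmdmdx arrays at 6 months, with bars for the mean ± SD and open symbols for arrays high in Xist. The groups do not overlap in any of the 12 genes, and Dmdmdx is lower for Dmd, Nos1, Mstn, Ostn and Fasn and higher for the others.

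Most of the largest rises were of genes known from macrophages, the phagocytes that clear dead fibres. Of 36 measured macrophage genes 32 rose and none fell, and their median difference was 1.64. The mean over the list was 7.89, 7.59, 8.43, 7.67 and 7.63 in the C57Bl/6 arrays and 9.94, 9.42, 9.68, 9.31 and 9.51 in the Dmdmdx arrays. The highest control was C57Bl/6 replicate 3, the array with the strongest marrow signal, and it still lay below each Dmdmdx array. With Xist class as a covariate 31 of the 36 rose, and with Xist class and the marrow mean together 32. Between the arrays low in Xist alone (1 against 4) 15 of the 36 passed, and between those high in it (4 against 1) 9, all higher. In whole muscle, more macrophages and more RNA per macrophage cannot be told apart.

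Rises were ranked among called genes with non-overlapping arrays, leaving out predicted genes, small RNAs, Xist and Y-linked genes. C3ar1, the receptor for the complement fragment C3a, had the largest of them. It read 7.91, 8.27, 7.96, 8.26 and 7.87 in C57Bl/6 and 11.99, 11.15, 11.47, 11.15 and 11.24 in Dmdmdx, a difference of 3.35 ± 0.26 (adjusted p = 4.9e-14). The membrane-protein genes Ms4a7 and Ms4a6d rose by 3.10 ± 0.24 and 2.82 ± 0.28. Ms4a7 read 6.49, 6.14, 6.87, 6.06 and 6.23 in C57Bl/6 and 10.24, 9.11, 9.47, 9.40 and 9.09 in Dmdmdx, with Dmdmdx replicate 1 highest. Gpnmb, a lysosomal glycoprotein gene of lipid-laden and repair macrophages, read 8.17, 8.04, 8.74, 8.17 and 8.02 against 11.81, 11.13, 11.10, 10.77 and 11.06, a rise of 2.95 ± 0.28 (adjusted p = 2.8e-11). No array of one group reached the other for these 4 genes.

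Genes of macrophage enzymes and lysosomes were also among the 12 largest rises. Mmp12, the macrophage elastase, read 6.70, 6.61, 6.06, 6.37 and 6.72 in C57Bl/6 and 10.21, 9.54, 9.17, 8.96 and 9.23 in Dmdmdx (2.93 ± 0.35). Ctss, the lysosomal protease cathepsin S, rose by 2.91 ± 0.29 and Cd68, a lysosomal membrane marker, by 2.55 ± 0.28. Lgals3, the galectin-3 gene, rose by 2.61 ± 0.26 and Mpeg1, a pore-forming protein of phagosomes, by 2.71 ± 0.37. C57Bl/6 replicate 3 was the highest control for Ctss (8.68), Cd68 (9.44), Lgals3 (9.63) and Mpeg1 (9.38), and between the arrays low in Xist, where it is the only control, Mpeg1 differed by 1.29 with an adjusted p of 0.45. Adgre1, the F4/80 antigen, read 7.55 to 8.31 in C57Bl/6 and 9.99 to 10.69 in Dmdmdx.

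The 4 macrophage genes that did not pass were Cd163 (0.07 ± 0.19), Vsig4 (0.22 ± 0.32), Timd4 (-0.13) and Lyve1 (-0.12), all known as markers of resident tissue macrophages. Cd163, the haemoglobin scavenger receptor, read 7.04 to 7.51 in C57Bl/6 and 7.12 to 7.71 in Dmdmdx, so the groups overlapped. All other measured members of the list rose, so markers of resident macrophages did not all stay unchanged. Mrc1, the mannose receptor that also marks resident and repair macrophages, rose by 1.40 ± 0.16. The genes named here were picked for that role after their values were seen.

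Of 31 chemokine and receptor genes 9 rose and none fell. Ccl8 (2.74 ± 0.38), Ccl3 (2.39 ± 0.36) and Ccl7 (2.03 ± 0.39) attract monocytes, and Ccr2 (2.03 ± 0.33) is the receptor by which they leave the blood. Ccl2, the main ligand of Ccr2, read 7.33, 7.51, 7.69, 8.01 and 7.73 in C57Bl/6 and 10.01, 9.38, 10.59, 9.003 and 9.11 in Dmdmdx, a difference of 1.97 ± 0.38 (adjusted p = 0.00013). Dmdmdx replicates 1 and 3 were the highest. Of 28 cytokine and inflammasome genes 11 rose and none fell, led by the RNA sensor Tlr7 (1.88 ± 0.20), the interleukin-10 receptor chain Il10ra (1.35 ± 0.23) and the TNF receptor Tnfrsf1b (1.17 ± 0.16). Tgfb1, the ligand that drives fibrosis, rose by 0.92 ± 0.20 from 8.62 to 9.32 in C57Bl/6 to 9.63 to 10.14 in Dmdmdx. Il1b, Il6 and Tnf, the acute inflammatory cytokines, did not pass.

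Complement genes rose widely, 13 of 16 with none lower and a median of 0.89. The genes of the C1q recognition subunit C1qb and C1qc rose by 1.98 ± 0.17 and 1.70 ± 0.19 with non-overlapping arrays. C7, a part of the membrane attack complex, followed Xist class rather than lineage. It read 6.46, 7.04, 9.60, 6.96 and 6.50 in C57Bl/6 and 9.71, 10.56, 10.53, 6.83 and 10.17 in Dmdmdx, so the 5 arrays high in Xist were the low ones in both groups. Its difference of 2.25 ± 0.69 (adjusted p = 0.019) became 0.27 with an adjusted p of 0.64 when Xist class was a covariate. The call of C7 also ended without C57Bl/6 replicate 1 (adjusted p = 0.058), C57Bl/6 replicate 5 (0.060), Dmdmdx replicate 2 (0.062), Dmdmdx replicate 3 (0.067) or Dmdmdx replicate 5 (0.052).

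Genes of antigen presentation were higher. Of 12 measured 6 rose and none fell, and the leading ones were the invariant chain Cd74 (1.502 ± 0.30) and the class II chains H2-Ab1 (1.43 ± 0.34), H2-Aa (1.37 ± 0.29) and H2-Eb1 (1.34 ± 0.28). Cd74 read 9.91 to 10.49 in C57Bl/6 and 11.49 to 11.88 in Dmdmdx.

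Interferon-induced genes were higher and varied among the Dmdmdx animals. Of 26 measured 10 rose and none fell, with a median of 0.48. Irf7, the master regulator of type I interferon, read 7.84, 7.82, 7.85, 8.04 and 7.39 in C57Bl/6 and 9.51, 8.14, 9.68, 8.67 and 9.14 in Dmdmdx (1.24 ± 0.32, adjusted p = 0.0047). Mx1, an antiviral GTPase, read 5.94 to 6.12 in C57Bl/6 and 7.35, 6.27, 8.34, 6.31 and 6.67 in Dmdmdx (0.97 ± 0.26). Dmdmdx replicate 3 was highest in both genes, and replicates 2 and 4 lay just above the controls in Mx1. Without replicate 3 the call of Mx1 ended (adjusted p = 0.085) and the list counted 6 risen genes in place of 10. The other leading members were Oasl2 (1.16 ± 0.29), an oligoadenylate synthetase-like protein, and Rtp4 (1.05 ± 0.27). Ifih1, the sensor of double-stranded RNA whose promoter is printed above, rose by 0.52, and Oas1a by 0.55. The call of Ifih1 also ended without Dmdmdx replicate 3 (adjusted p = 0.051).

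Lymphocyte and granulocyte markers did not follow the macrophages. Among 22 T and NK cell genes 1 rose, the interleukin-7 receptor Il7r (1.68 ± 0.45, adjusted p = 0.0065), and among 13 B and plasma cell genes none passed. None of 16 neutrophil genes passed and their median was -0.91, moving with the marrow signal of the control arrays above. With the marrow mean as a covariate 2 neutrophil genes rose and none fell (median 0.32). With Xist class and the marrow mean 1 rose (median 0.23). The marrow mean shares genes with the neutrophil list. No B and plasma cell gene passed in those fits, with medians of 0.13 and 0.49, against -0.24 in the main fit. Of 20 marrow genes 1 fell, Alas2, the haem synthesis enzyme of red cell precursors, which read 9.91, 9.38, 10.81, 9.32 and 9.56 in C57Bl/6 and 7.82, 8.08, 8.46, 7.71 and 9.15 in Dmdmdx (-1.55 ± 0.53, adjusted p = 0.038). The call of Alas2 ended with Xist class as a covariate (adjusted p = 0.055). It ended as well without C57Bl/6 replicate 1 (0.067), 3 (0.11) or 5 (0.053) and without Dmdmdx replicate 1 (0.092), 2 (0.069), 3 (0.055) or 4 (0.090).

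Lysosome and autophagy genes rose in 13 of 28 cases and fell in 2. Atp6v0d2, a proton pump subunit of macrophages and osteoclasts, had the largest rise of the list (2.66 ± 0.47) but spread widely among the controls, at 7.97, 4.90, 8.88, 5.64 and 5.50 against 9.66, 9.18, 8.79, 8.93 and 9.65 in Dmdmdx. C57Bl/6 replicates 1 and 3, which were high in marrow markers, were high in Atp6v0d2 too. Grn, the progranulin gene, rose by 1.35 ± 0.14, and the cathepsin genes Ctsz and Ctsb by 1.00 ± 0.16 and 0.88 ± 0.11. The members that fell were Ulk1 (-0.47), the kinase that starts autophagy, and Tfeb (-0.44), the transcription factor of lysosomal genes.

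**Figure D2:**
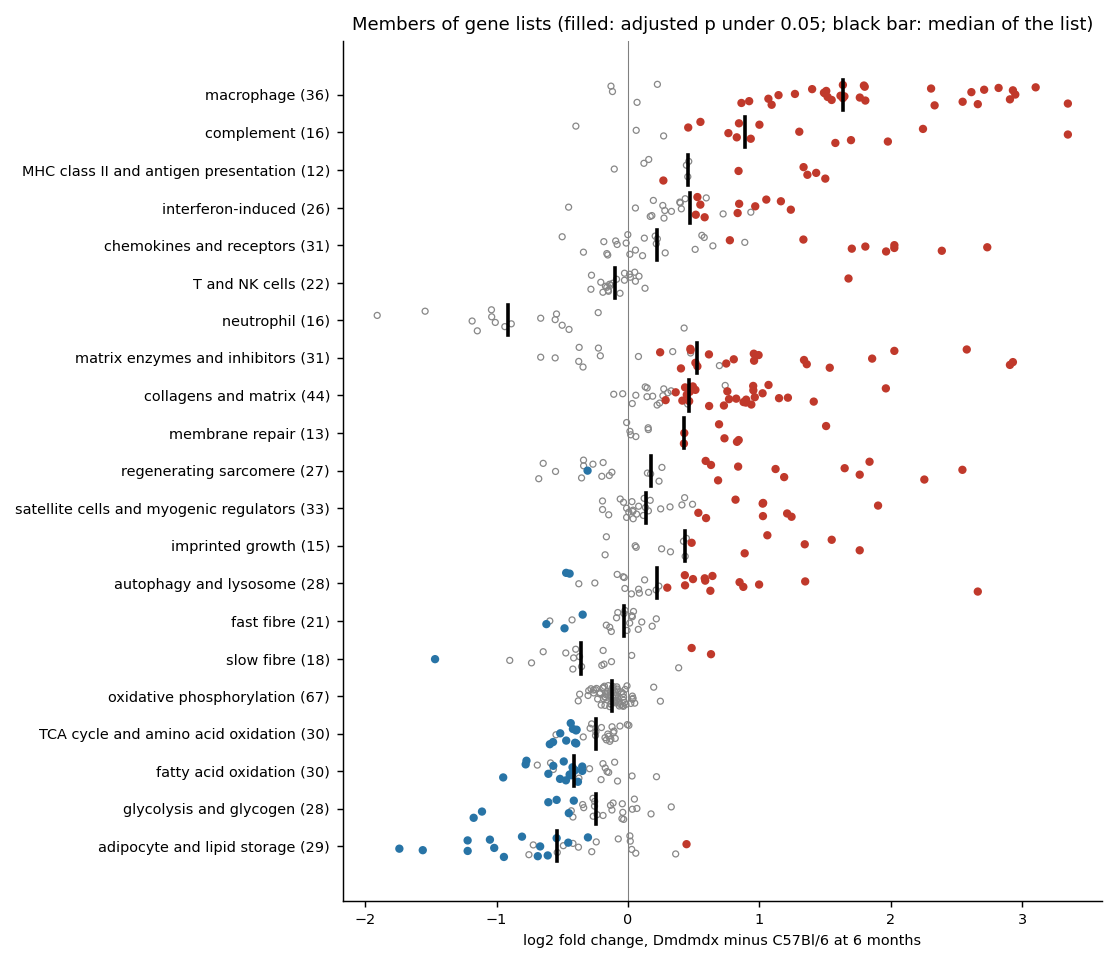
Difference of Dmdmdx from C57Bl/6 at 6 months (log2 units) for every measured member of 21 gene lists, 1 point per gene with a bar for the median of each list. Macrophage genes stand highest with a median of 1.64 and neutrophil genes lowest with -0.91, none of the latter called. Fatty acid oxidation (-0.41) and adipocyte genes (-0.54) also lie below the median of all genes (-0.05).

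Matrix genes were higher, by less than macrophage genes. Of 44 collagens and other matrix proteins 28 rose and none fell, with a median of 0.47. The list mean was 9.74, 9.51, 9.48, 9.44 and 9.49 in C57Bl/6 and 10.06, 10.12, 10.15, 10.11 and 10.14 in Dmdmdx, so the groups lay apart and the Dmdmdx arrays were close together. Postn, the periostin of injured connective tissue, rose by 1.96 ± 0.22 (10.34, 9.46, 10.30, 9.45 and 9.09 against 11.97, 11.33, 11.19, 12.12 and 11.85). Col3a1, the fibrillar collagen of young scar, read 9.71, 9.60, 9.48, 9.42 and 9.32 against 11.05, 11.09, 11.08, 10.67 and 10.71 (1.41 ± 0.17). Col8a1 (1.22 ± 0.20) and Col6a3 (1.15 ± 0.18) followed. Col1a1, the main collagen of tendon and bone as well as scar, rose by 0.90 ± 0.23 (adjusted p = 0.0034) but its groups overlapped. It read 11.56 and 11.54 in C57Bl/6 replicates 1 and 3, the controls with the highest marrow signal, and 10.07 to 10.36 in the other controls, against 11.45 to 11.82 in Dmdmdx.

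Enzymes and inhibitors that remodel matrix rose in 20 of 31 cases, with none lower. Timp1, an inhibitor of metalloproteinases, read 7.71, 6.65, 7.56, 7.21 and 6.61 in C57Bl/6 and 9.82, 9.50, 10.61, 9.16 and 9.56 in Dmdmdx (2.58 ± 0.27, adjusted p = 5.5e-10). Serpina3n, a secreted serine protease inhibitor, rose by 2.03 ± 0.34. Of 21 genes of fibro-adipogenic progenitors, the mesenchymal cells that make matrix in muscle, 8 rose and none fell. They included Pdgfra, the receptor by which these cells are sorted (0.54 ± 0.11), the chemokine Cxcl14 (0.78 ± 0.15) and Vim (0.59 ± 0.06). Of 14 tendon genes 3 rose, the lubricin gene Prg4 (2.04 ± 0.24), Cilp (1.45 ± 0.21) and Thbs4 (0.95).

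The TGF-beta, BMP and activin list moved both ways, with 6 of 34 genes higher and 3 lower. Besides Tgfb1, the TGF-beta-induced matrix gene Tgfbi (0.98 ± 0.11) and the BMP target Id2 (0.95 ± 0.18) rose. Mstn, myostatin, the muscle-made brake on muscle growth, fell by 1.37 ± 0.30 (adjusted p = 0.00062). It read 10.72, 10.84, 10.61, 10.67 and 10.54 in C57Bl/6 and 9.27, 9.38, 9.03, 9.54 and 9.31 in Dmdmdx, with more than 1 unit between the groups. Of 26 WNT pathway genes 3 rose and 6 fell, and secreted WNT antagonists were among both, Sfrp1 (1.34 ± 0.23) and Sfrp2 (0.94 ± 0.22) higher and Frzb (-1.27 ± 0.21) lower. Fzd9, a WNT receptor, fell by 1.06 ± 0.17.

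Myh3, Tnnt2 and Myh8, markers of new fibres, were higher in each Dmdmdx animal than in the controls, to differing degrees. Of 27 genes of the regenerating sarcomere, the developmental contractile proteins made in newly formed fibres and their companions, 11 rose and 1 fell. The fall was not called without C57Bl/6 replicate 4, Dmdmdx replicate 1 or Dmdmdx replicate 3, and 2 were without C57Bl/6 replicate 3 or Dmdmdx replicate 5. The list median was 0.17, and 12 of the 27 had a difference below 0. With the marrow mean as a covariate 11 rose and 5 fell, and with Xist class and the marrow mean 9 rose and 5 fell. Myh3, embryonic myosin heavy chain, read 6.96, 6.80, 6.48, 7.21 and 6.80 in C57Bl/6 and 10.32, 8.74, 8.02, 10.21 and 9.69 in Dmdmdx (2.55 ± 0.36, adjusted p = 5.7e-07). Dmdmdx replicate 3 was the lowest and replicates 1 and 4 the highest. Tnnt2, the cardiac troponin T that immature fibres make, had the same lowest and highest animals, at 11.44, 10.75, 9.95, 11.77 and 11.09 against 8.93 to 9.36 in C57Bl/6 (1.84 ± 0.30). Ankrd1, a stretch-responsive sarcomere protein, rose by 2.26 ± 0.25. Myh8, perinatal myosin, rose by 1.12 ± 0.25 from 7.86 to 8.49 in C57Bl/6 to 8.89 to 9.73 in Dmdmdx.

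Of 33 satellite cell and myogenic regulator genes 9 rose and none fell. Mymk, the myomaker that fuses myoblasts, rose by 1.90 ± 0.33 and was again lowest in Dmdmdx replicate 3 (8.62, against 9.16 to 10.37 in the other Dmdmdx arrays and 7.53 to 7.92 in C57Bl/6). Myog, the factor of myoblast differentiation, rose by 1.03 ± 0.27 (6.95 to 7.36 against 7.86 to 8.56). Hgf, which wakes satellite cells, rose by 1.21 ± 0.15 and the neural adhesion molecule Ncam1 by 1.03. Pax7, the marker of the satellite cell itself, differed by 0.17 ± 0.11 and did not pass (adjusted p = 0.35). Of 26 genes of the neuromuscular junction and Schwann cells 7 rose and 1 fell, against 3 and 5 with Xist class and the marrow mean as covariates. The acetylcholine receptor genes Chrna1 (1.25 ± 0.24) and Chrng (1.03) and the transcription factor gene Runx1 (1.42 ± 0.17), all raised in muscle that loses its nerve, led the list.

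Imprinted genes of growth rose in 6 of 15 cases, with none lower and a median of 0.44. Igf2, the fetal growth factor, read 9.57, 9.46, 9.20, 9.73 and 9.41 in C57Bl/6 and 11.30, 11.11, 10.68, 11.53 and 11.57 in Dmdmdx (1.76 ± 0.21, adjusted p = 5.8e-09). Peg3 and Mest, expressed from the paternal copy, rose by 1.55 ± 0.17 and 1.35 ± 0.35, and Zim1 rose by 1.06 ± 0.19. The groups lay apart in all 4 genes.

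Of 32 cell cycle genes 1 rose, Ccnd1 (0.65 ± 0.17), the cyclin that starts the cycle, and 1 fell, Pttg1, the securin. Pttg1 read 9.999, 9.91, 9.72, 9.97 and 9.67 in C57Bl/6 and 8.001, 7.68, 7.85, 7.80 and 7.72 in Dmdmdx, a fall of 2.04 ± 0.13 (adjusted p = 1.6e-16) that no other member of its list shared. The list mean was 8.73 in C57Bl/6 replicate 3 and 7.02 to 7.64 in the other controls, against 7.48 to 8.18 in Dmdmdx. Without arrays holding markers of other tissue, C57Bl/6 replicate 3 among them, 17 of the 32 genes passed in place of 2.

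Genes of fast and slow fibres were called at about the share of all genes, 14.3% and 16.7% against 13.9%. Myh4, the fastest myosin of mouse limb muscle, read 13.30 to 13.39 in C57Bl/6 and 13.32 to 13.43 in Dmdmdx (0.01 ± 0.09, adjusted p = 0.94). Myh7, the slow myosin, read 11.73, 10.43, 10.94, 11.69 and 11.66 in C57Bl/6 and 9.58, 10.82, 10.46, 10.88 and 11.04 in Dmdmdx and did not pass (-0.73 ± 0.42, adjusted p = 0.29). Of 18 slow fibre genes 2 rose and 1 fell, Myl3, the slow myosin light chain (-1.47 ± 0.46, adjusted p = 0.021), whose call ended without C57Bl/6 replicate 4 (0.054) or Dmdmdx replicate 1 (0.093). Of 21 fast fibre genes 3 fell, Myh2 (-0.62), Eya1 (-0.48) and Sox6 (-0.34), with adjusted p of 0.022 to 0.049. Leaving out C57Bl/6 replicate 4 or Dmdmdx replicate 3 ended all 3 of these calls, leaving out any of C57Bl/6 replicates 1, 2 and 5 and Dmdmdx replicates 1 and 2 left 1, and leaving out C57Bl/6 replicate 3 or Dmdmdx replicate 4 left 2. With Xist class and the marrow mean as covariates 10 of the 21 fast and 7 of the 18 slow fibre genes fell.

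Of 31 genes of calcium handling and excitation 2 rose and 2 fell, and 1 to 4 fell when any 1 array was left out. With the marrow mean as a covariate 11 of them fell, with Xist class and the marrow mean 16, and without arrays holding markers of other tissue 8. Of 18 clock genes 2 fell and none rose, and the count was 0 without C57Bl/6 replicate 2 or 4 and 1 without C57Bl/6 replicate 1 or Dmdmdx replicate 1, 2, 3 or 4. Of 18 heat shock genes 1 fell and none rose, and that call ended without any one array except C57Bl/6 replicates 3 and 5. With both covariates 5 clock and 7 heat shock genes fell.

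Energy genes were lower, fatty acid oxidation most of all. Of 30 genes of fatty acid oxidation 16 fell and none rose, with a median of -0.41. The list mean was 10.63, 10.59, 10.66, 10.70 and 10.77 in C57Bl/6 and 10.27, 10.31, 10.32, 10.20 and 10.30 in Dmdmdx, so the groups lay apart. Acot2, a mitochondrial thioesterase, fell by 0.95 ± 0.23, Ppara, the nuclear receptor that drives these genes, by 0.78 ± 0.19 and Echs1, a beta-oxidation enzyme, by 0.61 ± 0.15. Ucp3, the mitochondrial uncoupling protein of muscle, was -0.77 ± 0.25 (adjusted p = 0.027). The call of Ucp3 ended without C57Bl/6 replicate 3 (0.058), C57Bl/6 replicate 5 (0.16), Dmdmdx replicate 1 (0.064), Dmdmdx replicate 4 (0.089) or Dmdmdx replicate 5 (0.059).

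Of 30 genes of the TCA cycle and amino acid oxidation 10 fell, led by Aldh6a1 (-0.59 ± 0.16), an enzyme of valine breakdown, and none rose. With Xist class and the marrow mean as covariates 25 fell. Of 28 glycolysis and glycogen genes 6 fell, among them the muscle fructose bisphosphatase Fbp2 (-1.17 ± 0.22), the lactate dehydrogenase gene Ldhb of oxidative tissue (-1.11 ± 0.18) and the lactate carrier Slc16a1 (-0.61 ± 0.10). Without C57Bl/6 replicate 1, C57Bl/6 replicate 4 or Dmdmdx replicate 1 this count was 3, and with both covariates 19 fell and 2 rose. None of the 67 genes of oxidative phosphorylation passed in limma, although 60 of them had a difference below 0, and their median was -0.12. With Xist class as a covariate 10 of them fell, and with Xist class and the marrow mean together 46 fell and 1 rose. Ppargc1a, the coactivator of mitochondrial genes, read 9.88, 10.14, 10.18, 10.25 and 10.68 in C57Bl/6 and 9.76, 9.67, 9.36, 9.61 and 9.77 in Dmdmdx. The groups lay apart, but its difference of -0.59 ± 0.33 did not pass with the spread estimated over all 60 arrays (adjusted p = 0.26) and did pass with the 10 compared arrays alone (0.0068).

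Lipid synthesis genes were lower. Of 29 adipocyte and lipid storage genes 14 fell and 1 rose, with a median of -0.54. The rise ended without any one array except Dmdmdx replicates 4 and 5, and it was not called with Xist class as a covariate. Fasn, the fatty acid synthase, read 10.86, 11.55, 10.999, 11.59 and 10.70 in C57Bl/6 and 8.99, 9.53, 9.33, 10.17 and 8.99 in Dmdmdx (-1.74 ± 0.31, adjusted p = 4.2e-05). Elovl6, which lengthens its products, fell by 1.56 ± 0.29 and Dgat2, which makes triglyceride from them, by 1.22 ± 0.19. In Elovl6 the controls spread from 9.07 to 10.64 and the Dmdmdx arrays from 7.98 to 8.27, without overlap.

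The hormones of fat cells were less certain. Retn, resistin, was -1.22 ± 0.42 (adjusted p = 0.044, 0.24 with Xist class as a covariate), and its call ended without any one of the 10 arrays except Dmdmdx replicate 4 (0.052 to 0.19). Adipoq, adiponectin, read 10.60, 11.02, 10.53, 10.38 and 10.30 in C57Bl/6 and 8.52, 10.09, 10.42, 10.04 and 9.98 in Dmdmdx and did not pass (-0.75 ± 0.41, adjusted p = 0.25). Dmdmdx replicate 1 had the lowest values of Fasn, Retn and Adipoq, the first of them shared with replicate 5. The count of 14 was 9 without C57Bl/6 replicate 2, C57Bl/6 replicate 4 or Dmdmdx replicate 5 and 8 without Dmdmdx replicate 1. With Xist class as a covariate 10 fell.

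Of 19 genes of sterol synthesis and export 3 rose and 3 fell. Those that rose export cholesterol, Apoe (1.27 ± 0.16), Abcg1 (1.101 ± 0.18) and Abca1 (0.78), and Fdft1, a synthesis enzyme, fell by 0.66 ± 0.17. Apoe read 11.23 to 11.50 in C57Bl/6 and 12.52 to 12.72 in Dmdmdx.

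**Figure D3:**
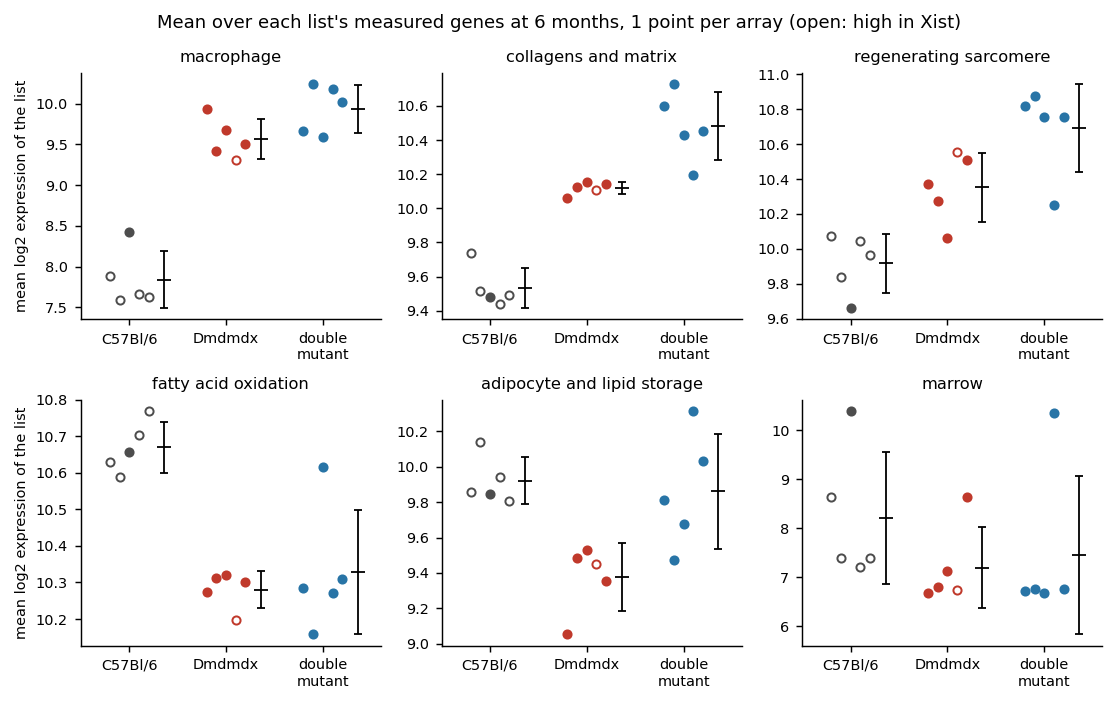
Mean level (log2 RMA value) over the measured members of 6 gene lists in each array of C57Bl/6, Dmdmdx and the double mutant at 6 months, with bars for the mean ± SD and open symbols for arrays high in Xist. Macrophage and matrix means of Dmdmdx lie above all C57Bl/6 arrays, the fatty acid oxidation mean lies below them, and the marrow mean is highest in C57Bl/6 replicate 3 and double-mutant replicate 4.

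Among genes ranked by the same rule as C3ar1, the largest fall belonged to a muscle-made hormone. Ostn, osteocrin or musclin, read 11.26, 11.13, 9.95, 11.07 and 11.48 in C57Bl/6 and 7.29, 7.46, 7.00, 7.57 and 7.15 in Dmdmdx. It differed by -3.68 ± 0.26 (adjusted p = 2.9e-15), and the lowest control, C57Bl/6 replicate 3, was more than 2 units above each Dmdmdx array. Of 16 myokine genes 3 rose and 3 fell, Mstn among the latter and Fstl1, a follistatin-like secreted protein (0.81 ± 0.16), among the former.

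The other genes among the 12 largest falls have diverse functions. Lgi1, a secreted synaptic protein, fell by 2.12 ± 0.38 (8.59, 7.54, 7.94, 8.73 and 8.62 against 5.60, 5.96, 5.90, 6.19 and 7.18, with Dmdmdx replicate 5 nearest the controls). Ces1d, a lipid-hydrolysing carboxylesterase, fell by 1.998 ± 0.44, from 9.70 to 10.53 in C57Bl/6 to 7.398 to 8.50 in Dmdmdx. Pla2g5, a secreted phospholipase A2, fell by 1.84 ± 0.17. Ppp1r1a, an inhibitor of protein phosphatase 1, fell by 1.84 ± 0.15. Asb4, a substrate receptor of a ubiquitin ligase, differed by -1.74 ± 0.13, Lrrc52, a subunit of potassium channels, by -1.72 ± 0.29 and Otub2, a deubiquitinase, by -1.70 ± 0.15. The groups lay apart in each of these genes.

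Akr1e1, an aldo-keto reductase, had the second largest rise by the same rule as C3ar1. It read 4.92, 5.22, 5.02, 5.42 and 5.35 in C57Bl/6 and 8.59, 8.35, 8.35, 8.44 and 8.41 in Dmdmdx, a difference of 3.24 ± 0.43 (adjusted p = 9.5e-08). The Dmdmdx arrays had an SD of 0.10. Its difference was 3.00 at 3 months and 3.38 at 21 days, and the double mutant differed from Dmdmdx at 6 months by -0.03 ± 0.43.

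Growth factor and IGF pathway genes rose in 3 of 27 cases and fell in 5. Fgfbp1, a carrier that releases fibroblast growth factors from matrix, fell by 1.13 ± 0.15, Egf by 1.11 ± 0.17 and Fgf2 by 0.70 ± 0.15. Among 29 antioxidant genes the metallothioneins Mt2 (1.87 ± 0.24) and Mt1 (1.15 ± 0.26) and the phagocyte oxidase subunits Cybb (1.64 ± 0.38) and Cyba (1.23 ± 0.25) were the largest of 7 that rose, and 3 fell, Nqo1 (-0.82 ± 0.16), Gsta4 (-0.70 ± 0.14) and Cat, the catalase (-0.70 ± 0.13). Cybb, which neutrophils and macrophages share, read 11.16 in C57Bl/6 replicate 3 and 8.62 to 9.47 in the other controls, against 10.70 to 11.39 in Dmdmdx. Of 27 genes of amino acid stress and the unfolded protein response 8 rose, led by Atf3 (0.85 ± 0.21), and 1 fell, a call that ended without C57Bl/6 replicate 4 or 5 or Dmdmdx replicate 4 or 5. Of 25 atrophy and proteolysis genes 2 rose, the metallothioneins again, and 3 fell, a count of 1 without C57Bl/6 replicate 2, C57Bl/6 replicate 4 or Dmdmdx replicate 3. Of 14 polyamine and creatine genes 3 rose, Gatm (0.89 ± 0.18) and Gamt (0.87 ± 0.25) of creatine synthesis and Sat1 (0.87 ± 0.15) of polyamine breakdown, and the call of Gamt ended with Xist class as a covariate (adjusted p = 0.085).

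Of 27 endothelial genes 11.1% were called, beside 13.9% of all genes. Among them 1 rose, the apelin receptor Aplnr (0.82 ± 0.24), and 2 fell, one of them Vegfa (-0.62 ± 0.11), the growth signal of vessels that muscle fibres make. The other fall was no longer called without any one of C57Bl/6 replicates 1, 2, 4 and 5 or Dmdmdx replicates 1, 2 and 3, which left 1. Of 14 pericyte and smooth muscle genes 1 rose, Pdgfrb (0.40), and no skin gene of 13 passed. Of 14 bone and cartilage genes 1 fell, Alpl (-0.95 ± 0.26), and of 16 lymph node genes 1 fell, Satb1 (-0.46 ± 0.12).

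Few loci of microRNAs, which repress messages that pair with their seed, passed. Of 302 measured, 3 did (0.993%, beside 13.9% of all genes) and 16 had an unadjusted p under 0.05. Mir692-1 rose by 0.83 ± 0.17 (adjusted p = 0.00032), Mir350 rose by 0.43 ± 0.15 (0.045) and Mir129-1 fell by 0.45 ± 0.11 (0.0032). The call of Mir350 ended with Xist class as a covariate (adjusted p = 0.096) and without any one of the 10 arrays except C57Bl/6 replicate 3 and Dmdmdx replicate 4, with an adjusted p of up to 0.15. The probe sets of this array read the transcribed locus and do not separate precursor from mature forms. The mature sequences of the 3 loci, from RefSeq on GRCm38.p6, are printed with the seed, bases 2 to 8, in capitals, and no 2 of them share a seed.
mmu-miR-692, chr17:6895259-6895279, minus strand: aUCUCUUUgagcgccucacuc
mmu-miR-350-3p, chr1:176772342-176772363, minus strand: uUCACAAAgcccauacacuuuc
mmu-miR-350-5p, chr1:176772382-176772400, minus strand: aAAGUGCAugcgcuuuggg
mmu-miR-129-5p, chr6:29022624-29022644, plus strand: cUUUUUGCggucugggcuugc

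The difference of Dmdmdx from C57Bl/6 at 6 months was set against that at 3 months and at 21 days, each taken within its own age because array levels differ between ages. Macrophage genes had risen at every age, with 33 of the 36 higher at 3 months and a median of 1.80 (12.3% of all genes were higher and 15.8% lower at that age), and 34 higher at 21 days with a median of 2.36 (11.7% and 13.5%). Oxidative phosphorylation had 52 of 67 genes lower at 3 months and 52 at 21 days, with medians of -0.42 and -0.37, against 0 at 6 months, or 46 at 6 months with Xist class and the marrow mean as covariates (median -0.33). Cell cycle genes had 22 of 32 higher at 3 months and 29 at 21 days, with medians of 0.89 and 1.29. At 6 months 1 was higher, with a median of 0.28. That count was 16 without the arrays of any group holding markers of other tissue, and 2 without C57Bl/6 replicate 3 alone. The adipocyte list had medians of 0.00 and -0.07 at the earlier ages. These counts differ between ages, but no gene of these 4 lists except Fasn and Vsig4 passed the test of the difference itself.

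That test called 1 gene between 6 and 3 months (0.00502% of genes), Pla2g5. Its difference from C57Bl/6 was -1.84 at 6 months and -0.34 at 3 months, a change of -1.496 ± 0.24 (adjusted p = 0.0018, but 0.12 with Xist class as a covariate, which left no gene called). Between 6 months and 21 days 100 genes were called (0.502%), 51 with a higher and 49 with a lower difference at 6 months. Without Dmdmdx replicate 2 there were 61 and without Dmdmdx replicate 3 there were 58.

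Ostn had the largest change from 21 days among the genes named. Its difference was -0.62 at 21 days, -2.22 at 3 months and -3.68 at 6 months, and that at 6 months was lower than that at 21 days by -3.06 ± 0.37 (adjusted p = 4.8e-07). Igf2 was 0.15 at 21 days, 1.74 at 3 months and 1.76 at 6 months, a change of 1.61 ± 0.29 (adjusted p = 0.0014), and Peg3 went from 0.47 to 1.55, a change of 1.08 ± 0.24. Pi15, a secreted protease inhibitor, changed by 1.12 ± 0.23 from -0.07. Serpinb6b, an intracellular serpin, changed by 1.23 ± 0.30 and the matrix protein gene Fbln7 by 1.05 ± 0.24, and both calls ended with Xist class as a covariate (adjusted p = 0.087 and 0.080). That of Serpinb6b also ended without C57Bl/6 replicate 1, 2, 4 or 5 or Dmdmdx replicate 2, 3 or 5 (0.057 to 0.069).

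Markers raised at 21 days were among those that changed down. Vsig4 was 2.23 at 21 days and 0.22 at 6 months (-2.01 ± 0.45, adjusted p = 0.016), and Arg1, the arginase of repair macrophages, was 1.998 and 0.20 (-1.80 ± 0.37, adjusted p = 0.0075). Pla2g7, the enzyme that breaks down platelet-activating factor, was 1.12 at 21 days and -0.89 at 6 months (-2.003 ± 0.24, adjusted p = 4.8e-07). Fasn went from 0.01 to -1.74, a change of -1.75 ± 0.44 (adjusted p = 0.048, 0.15 with Xist class as a covariate). The call of Fasn ended without any one of the 10 arrays at 6 months except C57Bl/6 replicate 5 and Dmdmdx replicate 4 (0.051 to 0.10).

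**Figure D4:**
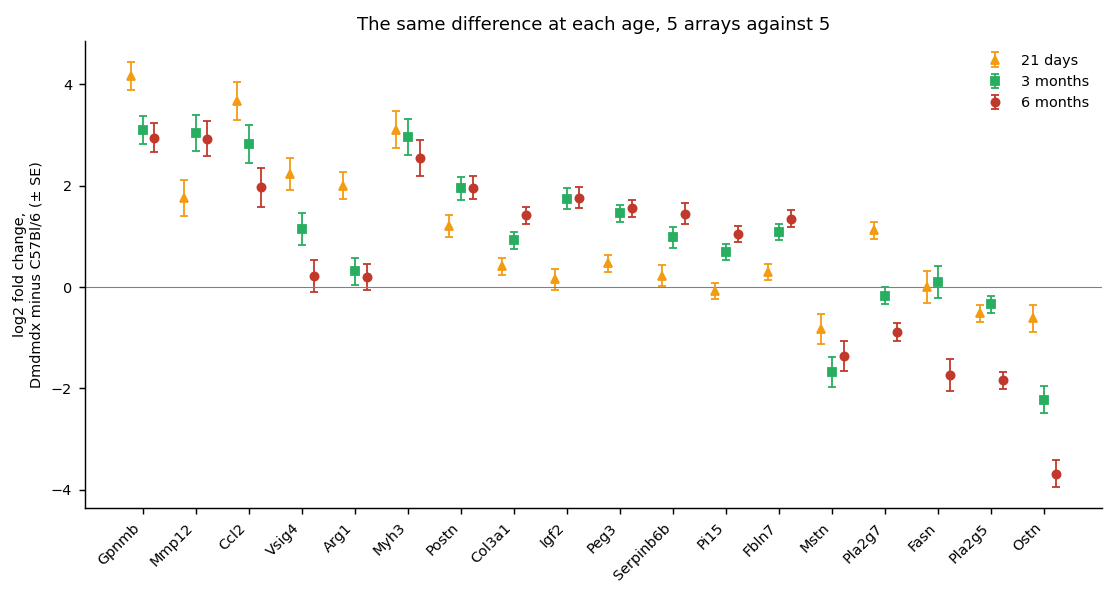
Difference of Dmdmdx from C57Bl/6 (log2 units ± standard error, 5 arrays per group) at 21 days, 3 months and 6 months for 18 genes. Gpnmb is 4.16 at 21 days and 2.95 at 6 months. Between these ages Ostn goes from -0.62 to -3.68, Igf2 from 0.15 to 1.76 and Vsig4 from 2.23 to 0.22.

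Dmdmdx/Largemyd double mutants, which also carry the Largemyd mutation that impairs dystroglycan glycosylation, were tested directly against Dmdmdx at 6 months. The test called 913 genes (4.58%), 504 higher in the double mutant (2.53%) and 409 lower (2.05%). Without Dmdmdx replicate 4, the Dmdmdx array high in Xist, 592 were called. The 5 double-mutant arrays were low in Xist, and their replicate 4 had a marrow mean of 10.35.

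Of the 4 resident macrophage markers that did not pass between Dmdmdx and C57Bl/6, a group named after its values were seen, 3 were higher in the double mutant and Timd4 did not pass (0.43 ± 0.41). Vsig4 read 6.18, 6.27, 6.32, 6.38 and 7.13 in Dmdmdx and 8.26, 9.32, 9.58, 9.32 and 9.16 in the double mutant (2.68 ± 0.32, adjusted p = 1.6e-07). Of the 36 macrophage genes 6 were higher and none lower, the others being Lyve1 (1.28 ± 0.24), Clec4n (0.95), Fcgr2b (0.80), Mrc1 (0.78) and Cd163 (0.74 ± 0.19). C3ar1 and Gpnmb differed by -0.06 ± 0.26 and 0.08 ± 0.28 and did not pass. Ccl8 was higher by 1.38 ± 0.38 (adjusted p = 0.020), a call that ended without Dmdmdx replicate 4 (0.067) or 5 (0.051).

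Hal, histidine ammonia lyase, had the largest rise over Dmdmdx among the genes named, at 3.02 ± 0.56 (adjusted p = 0.00044). It read 6.49 to 6.65 in Dmdmdx, 6.27 to 6.79 in C57Bl/6 and 6.63, 9.59, 10.29, 10.74 and 10.75 in the double mutant, so double-mutant replicate 1 stayed at the level of the other groups. Rrad, a GTPase that rises in damaged muscle, was higher by 1.35 ± 0.30. Matrix genes were higher in 11 of 44 cases and complement genes in 8 of 16, with none lower in either list.

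Of 29 adipocyte genes 5 were higher in the double mutant than in Dmdmdx and 1 was lower. This test shares its 5 Dmdmdx arrays with that against C57Bl/6, so low Dmdmdx values move the 2 differences in opposite directions. Between the double mutant and C57Bl/6, 3 of the 29 were higher and 5 lower, with a median of 0.04. Against Dmdmdx, Fasn was higher by 1.33 ± 0.31 and Dgat2 by 0.92 ± 0.19. Fasn read 11.49, 9.66, 9.80, 11.42 and 11.32 in the double mutant, with 3 arrays in the C57Bl/6 range and the others near Dmdmdx. Retn was higher by 1.38 ± 0.42 (adjusted p = 0.046), but not without Dmdmdx replicate 1 (0.17), 2 (0.068), 3 (0.056) or 5 (0.086).

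Genes of muscle fibres moved both ways in the double mutant. Of 21 fast fibre genes 7 were lower and none higher, Myh4 among them (-0.36 ± 0.09), and of 31 genes of calcium handling 7 were lower and 2 higher. Of 18 slow fibre genes 5 were higher and 1 lower, with a median of 0.53, and of 27 genes of the regenerating sarcomere 5 were higher and none lower, with a median of 0.21. Nos1 was lower again by 0.96 ± 0.21. Chac1, a glutathione-degrading enzyme, was lower by 1.60 ± 0.37, the melanocortin receptor Mc5r by 1.59 ± 0.20 and Pfkfb3, an activator of glycolysis, by 1.43 ± 0.27. Plcd4, a phospholipase C, and Klhl33 were lower by 1.38 ± 0.35 and 1.29 ± 0.18. Mc5r read 8.64 to 9.02 in Dmdmdx and 6.84 to 7.42 in the double mutant, without overlap. Ostn (-0.22 ± 0.26) and Igf2 (0.06 ± 0.21) did not pass.

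**Figure D5:**
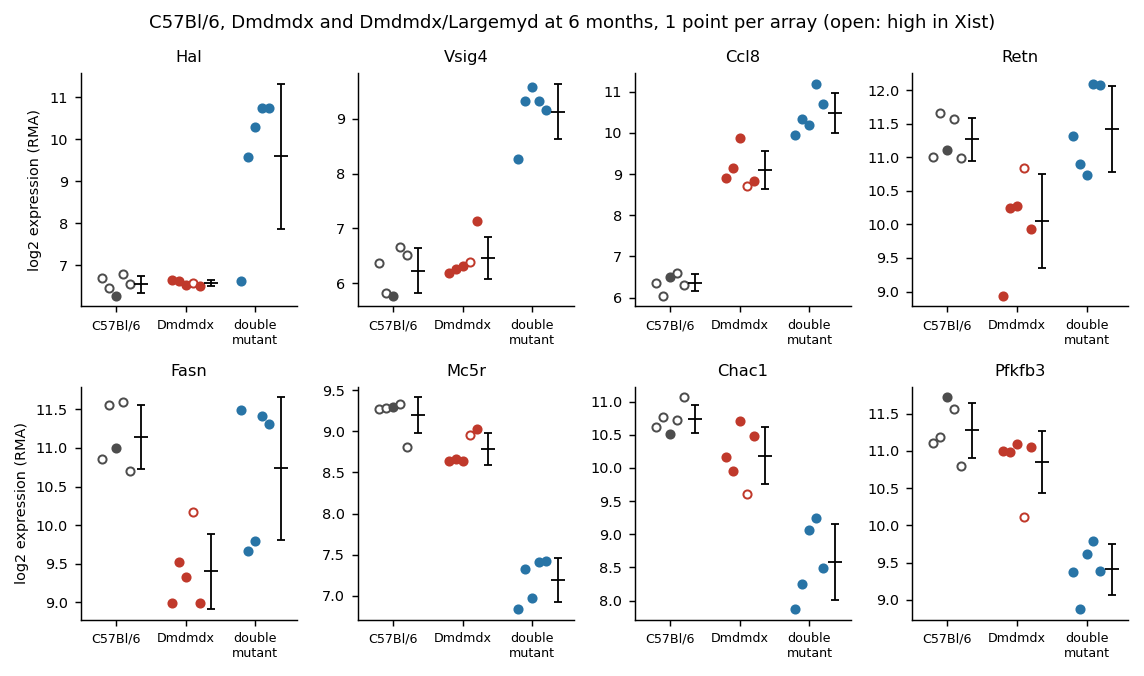
Level (log2 RMA value) of 8 genes in each array of C57Bl/6, Dmdmdx and the double mutant at 6 months, with bars for the mean ± SD and open symbols for arrays high in Xist. Hal and Vsig4 are at the level of C57Bl/6 in Dmdmdx and higher in the double mutant, except Hal in replicate 1, and Mc5r of the double mutant lies below both other groups.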

How the data were processed

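RNA of frozen, powdered calf muscle was measured on Affymetrix Mouse Gene 1.0 ST arrays, 1 per animal, in 4 lineages at 3 ages with 5 animals each. Per the submitters' processing notes and the labels, the authors deposited log2 expression values that Affymetrix Expression Console had computed by RMA. No source used here gives that program's version. RMA subtracts background, quantile-normalises and summarises probes, so the deposited values are relative within the normalised arrays. The number of arrays limits the precision, and array medians over all 35556 probe sets were 7.21 to 7.36 at 6 months.

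Of 35556 probe sets, 21789 had 1 gene symbol in the platform annotation, 1621 had several and 12146 none, and 21698 of the first were matched to RefSeq. Each gene was represented by its probe set of highest mean over the 60 arrays, which left 19938 genes, 999 of them chosen among several probe sets. A linear model of 12 group means was fitted to 60 arrays with 48 residual degrees of freedom in limma 3.58.1 (R 4.3.3), with moderated variances and Benjamini-Hochberg adjustment, and adjusted p under 0.05 was the threshold. Summaries used Python 3.11.15 with pandas 2.3.3, numpy 2.4.6 and matplotlib 3.10.9. On simulated arrays of this comparison over 19938 genes, 74.25% of genes changed by 0.5, 96.25% of those changed by 1 and 99.5% of those changed by 2 log2 units were recovered, with 6.148% false calls. Each simulation changed 200 genes and drew independent noise for every gene, with no Xist class or marrow signal shared among genes. The share of false calls in the real comparison was not tested.

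Arrays with Xist over 8 were classed as high (11 of 60). A covariate was fitted over all 60 arrays, with its effect taken as equal in every group. The marrow mean, array weights, other filters on dim genes, other probe set rules, smaller sets of arrays and leaving out each array were tried as alternatives. The 51 gene lists (1073 of 1174 genes measured) and the comparison were chosen with earlier results of these data known. The text names the 12 largest rises and falls among called genes whose arrays do not overlap, 26 key genes (Spp1 among them was not measured), up to 4 passing members of each list and the 5 largest rises and falls of each further test. Predicted genes, small RNAs, Xist and Y-linked genes were left out of these, and the 3 microRNA loci were named after their values were seen. The labels name separate animals and no litter, batch or date was used. The p-values set each difference against the spread between animals within a group, pooled over 12 groups and 60 arrays.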

Additional observations from a re-analysis of the deposited data

Results flagged for a closer look

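Single arrays stood far from the other 4 of their group in 8 of 102 checks of the named genes and list means, where the gap to the nearest array over the range of the group exceeded 0.71. Chance gives about 1 in 20. C57Bl/6 replicate 3 was high for Gpnmb (8.74) and Ctss (8.68) and low for Ostn (9.95) and Nos1 (9.77), and it had the highest marrow mean of the group. Dmdmdx replicate 1 was low for Ces1d (7.398) and Adipoq (8.52). Dmdmdx replicate 5 was high for the marrow mean (8.64) and C57Bl/6 replicate 1 for the mean of collagen and matrix genes (9.74).

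The difference of Dmdmdx from C57Bl/6 changed with age, by the test of the change itself, in the genes that follow. Pla2g5 was lower at 6 months than at 3 months by -1.496 log2 units. Against 21 days the difference was higher at 6 months for Igf2 (1.61), Serpinb6b (1.23), Pi15 (1.12), Peg3 (1.08) and Fbln7 (1.05). It was lower for Ostn (-3.06), Vsig4 (-2.01), Pla2g7 (-2.003), Arg1 (-1.80) and Fasn (-1.75). The calls of Serpinb6b, Fbln7, Fasn and Pla2g5 ended with Xist class as a covariate (adjusted p = 0.087, 0.080, 0.15 and 0.12 in limma).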

How the results depend on the processing

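The main count of 2763 genes was 2207 to 2871 when 1 array was left out. It was 6214 with array weights, 490 without arrays high in Xist, 4366 with the marrow mean as a covariate, 4874 with the marrow mean and Xist class, and 47 among arrays high in Xist alone, an alternative chosen after seeing the data. Within one Xist class a side of the comparison holds 1 array, which is assumed to vary like the other groups. Subtracting array medians gave 1301 higher and 1597 lower. Dmd was -0.596 without arrays high in Xist and -0.994 among them, past the threshold in neither, and -1.02 to -0.85 when 1 array was left out. The change of the difference from 3 months to 6 months was called in 1 gene, in 1 to 2 when 1 array was left out, in 23 with array weights, in 33 without arrays high in Xist, and in 0 with Xist class, with Xist class and marrow mean, or among arrays high in Xist. That from 21 days was called in 100 genes, in 58 to 122 when 1 array was left out, in 1911 with array weights, 269 without arrays high in Xist, 162 with both covariates and 44 without the 3 arrays highest in marrow markers, also chosen after seeing the data. The double mutant differed from Dmdmdx in 913 genes, in 592 to 921 when 1 array was left out, in 3019 with array weights and in 1436 with both covariates. The cause of these changes was not tested. Over 42 genes, the largest rises and falls and the key genes other than Dmd, 991 results under these alternatives kept direction and side of the threshold, 52 fell short of it, 7 passed it newly and none changed sign as a called value. Members named from the lists are not in this count, and the calls they lost stand beside them. No paired analysis was possible because the labels give no replicate numbers, and the numbers used here only name the arrays.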
